A study of Mus musculus with 4 samples.

Results

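The 9 genes described here encode sensors of viral RNA and of cytosolic DNA, an adaptor, and the transcription factors that act downstream of them: Ddx58 (which encodes RIG-I), Ifih1, Tlr3, Mavs, Aim2, Irf1, Irf3, Irf7 and Stat2. They were taken by symbol from 55401 gene identifiers, and all 9 were found. They were picked with their levels in these same libraries in view, so their differences between the groups are given as a description, with no test. RNA was measured by mRNA sequencing in 4 libraries of mouse embryonic stem cells. The fusion group holds 2 libraries (replicates 1 and 2) of EB3-derived cells that express NUP98-HOXA9, a leukaemia fusion of a nucleoporin with a homeodomain factor. The wild-type group holds 1 library of EB3-derived cells with an empty vector and 1 library of the parental EB3 line. All were grown on gelatin in serum with LIF, and no virus, nucleic acid or interferon treatment is named for any library. The promoter that drives the fusion is not given in the labels, nor is whether its replicates are clones or cultures of 1 clone, so a p-value reflects no more than the spread among these 4 libraries. A single library controls for the vector.

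RIG-I and MDA5 (the product of Ifih1) are helicases that bind double-stranded RNA in the cytosol and signal through MAVS on mitochondria, whereas TLR3 detects such RNA in endosomes. AIM2 binds double-stranded DNA and assembles an inflammasome. The RNA pathways activate IRF3 and IRF7, which induce type I interferon, and secreted interferon acts through its receptor on STAT2, IRF9 and other factors to raise a broad set of antiviral genes, several sensors among them. Pluripotent stem cells are known for a weak interferon response.

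The libraries held 19021386 to 21151729 estimated read counts. Reads assigned to mouse Hoxa9, a partner in the fusion, came to 189.7 and 127.2 CPM in fusion replicates 1 and 2 (counts per 1000000, with TMM library scaling), against 0 in both controls. All 10 stem cell markers had counts in every library, and together they stood at 6404 to 6634 CPM in the fusion libraries and at 5350 to 6008 CPM in the controls. By edgeR 0 of them passed (3 higher and 1 lower at an unadjusted p under 0.05, and 3 higher by DESeq2). DESeq2 called 919 higher and 436 lower of all tested genes, and no such share was taken at an unadjusted p. Of these 10, 3 stood above both controls in both fusion libraries and 3 below, against 27.1% and 24.2% of all tested genes. Above were Nanog, Klf4 and Tfcp2l1 (log2 fold changes 1.11, 1.40 and 0.83), and below were Sox2, Zfp42 and Utf1 (-0.34, -0.26 and -0.46). Over all 16511 genes tested, edgeR's quasi-likelihood test called 2.83% higher and 0.581% lower (Benjamini-Hochberg adjusted p under 0.05). Endoderm markers, a list written with earlier results of these data known, rose in 10 of 10 cases by that test, which is given as a description. They summed to 744.4 and 756.0 CPM in the fusion libraries, against 88.2 CPM in the parental and 75.0 CPM in the empty-vector library, and Sox17 was at 0 in the parental library. Markers of macrophages and leukocytes summed to 34.9 and 19.0 CPM in fusion replicates 1 and 2, against 13.6 CPM in the parental and 29.3 CPM in the empty-vector library, most of it from Cd68 (11.6 to 29.6 CPM). Tyrobp was at 0 in every library, and Ptprc, the pan-leukocyte marker, stayed under 0.2 CPM. Of the 3 tested, 0 passed by edgeR, with a median log2 fold change of 1.24. Both fusion libraries lay above both controls for 2 of the 3 and below both for 0, against 27.1% and 24.2% of all tested genes. These 2 were Itgam (2.41 and 3.33 CPM with the fusion, 0.729 and 1.70 CPM in the controls) and Cd14 (1.40 and 0.73 CPM against 0.260 and 0.265 CPM). Fibroblast feeder markers reached 92.2 and 91.4 CPM with the fusion, against 46.4 CPM in the parental and 32.6 CPM in the empty-vector library. Pdgfrb was the 1 of 7 tested that was called higher by edgeR, and the median log2 fold change was 0.90. For 5 of the 7 both fusion libraries lay above both controls, and for 1 below both, against 27.1% and 24.2% of all tested genes. The part of these cell types in the results below was not tested. In bulk RNA, fewer cells that express a gene and less RNA per cell cannot be told apart.

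The promoters of 4 of the genes hold a motif of the interferon pathway, and they are shown because they include Ddx58 and Irf1, which stood lower in the fusion cells, and Stat2, which did not. The windows run from 250 bases before to 50 bases after the RefSeq transcript start (build GRCm38.p6) and are written 5′ to 3′ on the gene's own strand. Ddx58 lies at chr4:40239776-40240075 (minus strand), Ifih1 at chr2:62646206-62646505 (minus strand), Stat2 at chr10:128270248-128270547 (plus strand) and Irf1 at chr11:53769764-53770063 (plus strand). Capitals mark matches, on either strand, to the core of the interferon-stimulated response element (GAAA and GAAA with 2 bases between them), to the gamma-activated site (TTCNNNGAA) and to the core of the PBX-HOX composite site (TGATTTA).
Ddx58: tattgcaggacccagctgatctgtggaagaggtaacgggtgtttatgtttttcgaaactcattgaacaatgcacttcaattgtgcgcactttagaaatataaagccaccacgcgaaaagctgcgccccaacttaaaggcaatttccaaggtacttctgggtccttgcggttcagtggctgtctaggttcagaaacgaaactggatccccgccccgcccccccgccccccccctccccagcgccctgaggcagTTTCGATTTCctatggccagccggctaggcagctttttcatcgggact
Ifih1: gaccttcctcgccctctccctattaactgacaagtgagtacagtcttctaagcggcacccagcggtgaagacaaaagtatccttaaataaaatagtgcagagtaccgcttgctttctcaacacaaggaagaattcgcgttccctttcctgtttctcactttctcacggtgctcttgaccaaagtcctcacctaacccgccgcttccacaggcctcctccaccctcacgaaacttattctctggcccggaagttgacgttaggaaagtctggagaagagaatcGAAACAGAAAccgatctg
Stat2: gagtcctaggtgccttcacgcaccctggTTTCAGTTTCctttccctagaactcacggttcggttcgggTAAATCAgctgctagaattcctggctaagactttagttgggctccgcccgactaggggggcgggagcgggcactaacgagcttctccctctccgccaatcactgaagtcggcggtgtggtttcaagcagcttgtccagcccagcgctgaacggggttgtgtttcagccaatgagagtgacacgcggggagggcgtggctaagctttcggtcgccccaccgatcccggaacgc
Irf1: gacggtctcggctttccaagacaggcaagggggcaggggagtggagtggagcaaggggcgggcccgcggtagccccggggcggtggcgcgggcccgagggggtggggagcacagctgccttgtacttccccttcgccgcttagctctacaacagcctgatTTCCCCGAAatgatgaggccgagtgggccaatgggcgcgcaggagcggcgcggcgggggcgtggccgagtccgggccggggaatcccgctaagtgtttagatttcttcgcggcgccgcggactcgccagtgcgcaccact

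The response element core stood at bases 3 to 12 after the start in Ddx58, at bases 33 to 42 after it in Ifih1, and at bases -222 to -213 in Stat2. The gamma-activated site of Irf1 lay at bases -90 to -82, and the PBX-HOX core at bases -182 to -176 of Stat2. None of the matches overlapped another. Of all 32851 windows, 3.44% hold the response element core, 8.30% the gamma-activated site and 2.97% the PBX-HOX core. A second Irf1 window and the windows of Aim2, Mavs, Irf3, Irf7 and Tlr3 hold none of these letters. A match is a string of letters and says nothing about binding. In the levels below, Ddx58 stood lower in the fusion libraries, Stat2 overlapped between the groups, and Ifih1 had too few counts to place. The windows held 15 CpG in Ddx58, 14 in Ifih1, 10 in Tlr3, 5 in Aim2, 19 in Mavs, 18 in Irf3, 7 in Irf7 and 22 in Stat2. The Irf1 window shown held 32 and the second Irf1 window 43, and the median over all windows was 7.

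**Figure D1:**
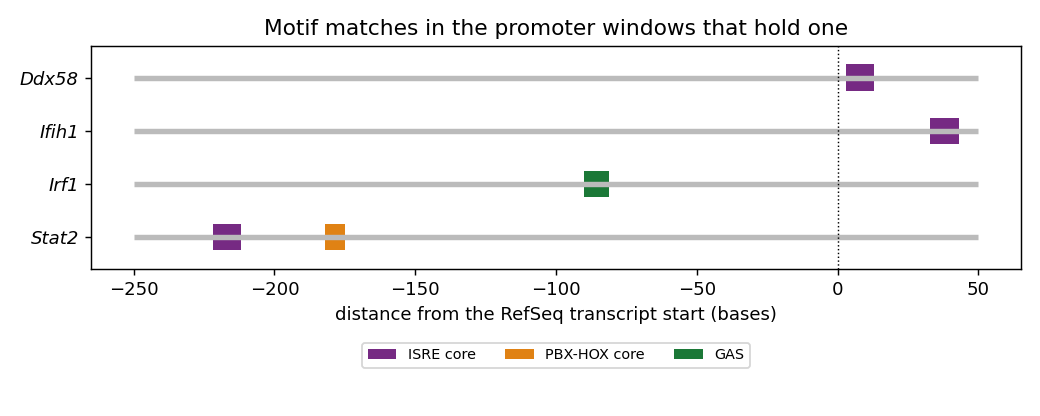
Positions of motif matches, in bases from the RefSeq transcript start, in the promoter windows of the 4 genes that hold one; the dotted line is the start. Ddx58 and Ifih1 carry the response element core just after the start, Stat2 carries it at -222 to -213, and Irf1 carries a gamma-activated site at -90 to -82.

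Among the RNA sensors, Ddx58 was the only one with more than 100 counts in any library, and it stood far lower in the fusion cells. The gene lies on chromosome 4 from 40203773 to 40239828 on the minus strand (GRCm38), with 10 annotated transcripts. Ddx58 had 217 and 164 counts in fusion replicates 1 and 2, against 1095 in the parental and 1065 in the empty-vector library. On the CPM scale that is 10.9 and 7.48 in the fusion libraries and 57.0 and 56.5 in the wild-type libraries, a mean level of 9.18 ± 2.40 CPM against 56.8 ± 0.386 CPM (SD, n = 2 each). The groups were far apart, and the controls all but coincided. The fitted log2 fold change was -2.63 (SE 0.26), or 6.19-fold lower in the fusion cells. Across the 4 pairings of a fusion with a control library the log2 ratio ran from -2.92 to -2.37.

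The other RNA sensors were scarcely present. Ifih1 (chromosome 2, 62595798 to 62646255, minus strand) had 2 and 1 counts in fusion replicates 1 and 2, against 16 in the parental and 2 in the empty-vector library. The parental library supplied most of them, and Ifih1 did not pass the filter on low counts. Over the groups that is 3 against 18 counts, a ratio of 0.151 (95% exact binomial interval 0.0286 to 0.519), and without the parental library it was 0.675 (0.0774 to 8.09). These intervals cover counting error only. Tlr3 (chromosome 8, 45395665 to 45411080, minus strand) had 5 and 16 counts in the fusion libraries, against 25 in the parental and 20 in the empty-vector library. The groups did not overlap, but fusion replicate 2 came close to the controls, and the ratio over the groups was 0.424 (0.240 to 0.727). Without fusion replicate 1 it was 0.617 (0.326 to 1.11), and without fusion replicate 2 it was 0.212 (0.0657 to 0.532). The Tlr3 intervals likewise leave out the spread between replicates. Genes of chromosome 8 as a whole had a median log2 fold change of -0.24 in fusion over wild-type libraries (549 genes at a mean of 10 CPM or more), and a median log2 ratio of -0.41 in the empty-vector over the parental library, against -0.06 and -0.009 over all 9734 such genes; their part in the Tlr3 values was not tested.

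Aim2, the DNA sensor, had the most negative fitted fold change of the 7 genes that passed the filter on low counts. Its annotated span covers chromosome 1 from 173350879 to 173466040 on the plus strand. Aim2 had 26 and 76 counts in fusion replicates 1 and 2, against 389 in the parental and 362 in the empty-vector library, or 1.303 and 3.47 CPM against 20.3 and 19.2 CPM. Both fusion libraries lay well below both controls, but replicate 2 stood 2.53-fold above replicate 1. The mean level was 2.38 ± 1.53 CPM in fusion cells and 19.7 ± 0.750 CPM in wild-type cells (SD, n = 2 each), with a fitted log2 fold change of -3.04 (SE 0.47). The span overlaps Cadm3 on the other strand, a gene at 0.902 and 1.23 CPM in the fusion libraries and at 2.08 CPM in the parental and 1.06 CPM in the empty-vector library. The labels and headers do not say if counting was strand-specific, so reads of such partners may be mixed.

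Mavs, the adaptor that carries RIG-I and MDA5 signals, went the other way by a small amount. It lies on chromosome 2 from 131234063 to 131248025 on the plus strand. Mavs had 930 and 815 counts in the fusion libraries, against 589 in the parental and 554 in the empty-vector library. That is 46.6 and 37.2 CPM in fusion replicates 1 and 2 and 30.7 and 29.4 CPM in the controls, so both fusion libraries stood above both controls. The mean was 41.9 ± 6.69 CPM in fusion cells and 30.0 ± 0.915 CPM in wild-type cells (SD, n = 2 each), and the fitted log2 fold change was 0.48 (SE 0.21).

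Of the interferon regulatory factors, Irf1 stood lower in the fusion cells, Irf3 overlapped and Irf7 was near 0. Irf1 (chromosome 11, 53770014 to 53778374, plus strand) is a factor induced by interferon and by NF-kB. It had 373 and 427 counts in fusion replicates 1 and 2, against 971 in the parental and 734 in the empty-vector library, or 18.7 and 19.5 CPM against 50.6 and 38.9 CPM. The fusion libraries nearly coincided and the controls differed more from each other, yet the groups did not overlap. The mean was 19.1 ± 0.547 CPM in fusion cells and 44.75 ± 8.23 CPM in wild-type cells (SD, n = 2 each), with a fitted log2 fold change of -1.23 (SE 0.23).

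Irf3 (chromosome 7, 44997648 to 45002848, plus strand), the factor that MAVS signalling activates without new synthesis, had 397 and 407 counts in the fusion libraries, against 532 in the parental and 350 in the empty-vector library. On the CPM scale fusion replicates 1 and 2 were at 19.9 and 18.6, the parental library at 27.7 and the empty-vector library at 18.6, so the parental library alone stood apart. The fitted log2 fold change was -0.27 (SE 0.28), smaller in size than its SE. Irf3 overlaps Bcl2l12 on the other strand, a gene at 8.94 to 13.3 CPM in these libraries. Irf7 (chromosome 7, 141262706 to 141266481, minus strand), the inducible partner of IRF3, had 8 and 5 counts in the fusion libraries, against 3 in the parental and 2 in the empty-vector library, and did not pass the filter. The ratio of 13 to 5 counts over the groups was 2.36 (95% exact binomial interval 0.790 to 8.46). That interval covers counting error only, and Irf7 had too few counts to place. On the TPM scale the group means stood in the opposite order, with 0.39 and 0.17 in the fusion libraries and 0.64 and 0.24 in the controls. TPM is scaled by transcript length. At these few counts the deposited mean length of Irf7 was 1607 and 2072 bases in the fusion libraries, against 399.1 in the parental and 717.4 in the empty-vector library. Irf7 overlaps Phrf1 on the other strand by a short stretch only, since Phrf1 ends at base 141262750. Phrf1 stood at 143.8 to 173.2 CPM.

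Stat2 (chromosome 10, 128270559 to 128292849, plus strand), the STAT protein specific to interferon type I and III receptors, varied more within groups than between them. It had 495 and 1006 counts in fusion replicates 1 and 2, against 973 in the parental and 664 in the empty-vector library. The order was 24.8 CPM in fusion replicate 1, 35.2 CPM with the empty vector, 45.9 CPM in fusion replicate 2 and 50.7 CPM in the parental library, so the groups were interleaved. Replicate 2 stood 1.85-fold above replicate 1, and the fitted log2 fold change was -0.28 (SE 0.33).

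**Figure D2:**
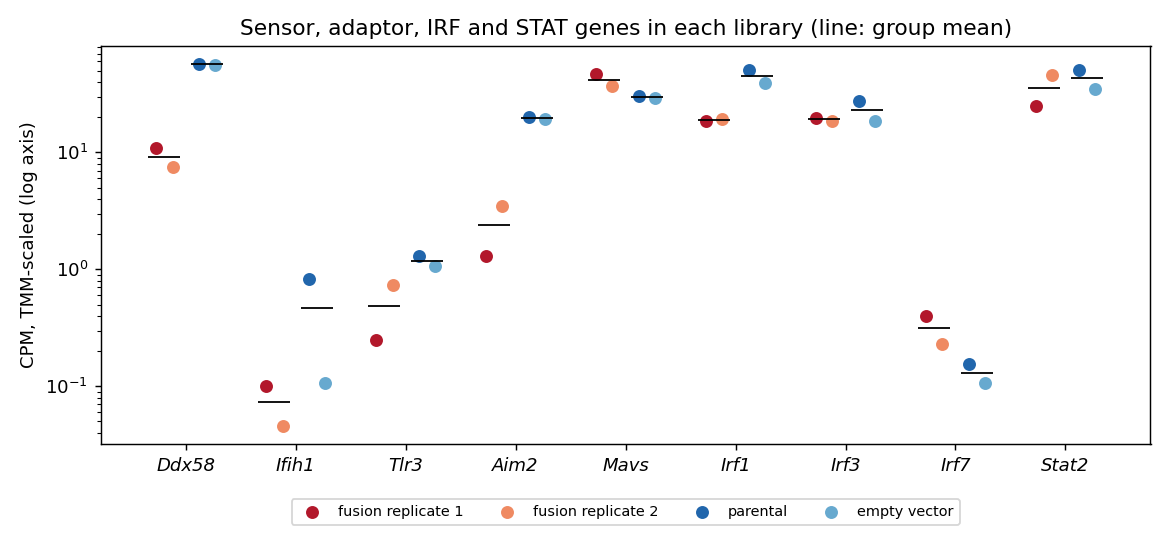
Level of each gene in CPM (TMM-scaled, log axis) in each of the 4 libraries; points are libraries and short lines are group means, with the fusion group at the left of each gene. Ddx58, Aim2 and Irf1 stand apart between groups at 19.5 CPM or less in the fusion libraries, Ddx58 from 56.5 CPM and Irf1 from 38.9 CPM upward in the controls, while Ifih1, Tlr3 and Irf7 lie near 1 CPM or below.

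Of the 9 genes, 7 passed the filter on low counts and 2, Ifih1 and Irf7, did not. Ddx58, Aim2 and Irf1 were among the genes called lower across the whole table (3 of the 7), where 0.581% of 16511 tested genes were called lower and 2.83% higher, or 3.42% in either direction. The fusion libraries lay below both controls for 4 of the 7 (Ddx58, Tlr3, Aim2 and Irf1) and above both for 1 (Mavs); over all tested genes these shares were 24.2% and 27.1%. Since the genes were picked on this contrast, nothing is read from either count.

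**Figure D3:**
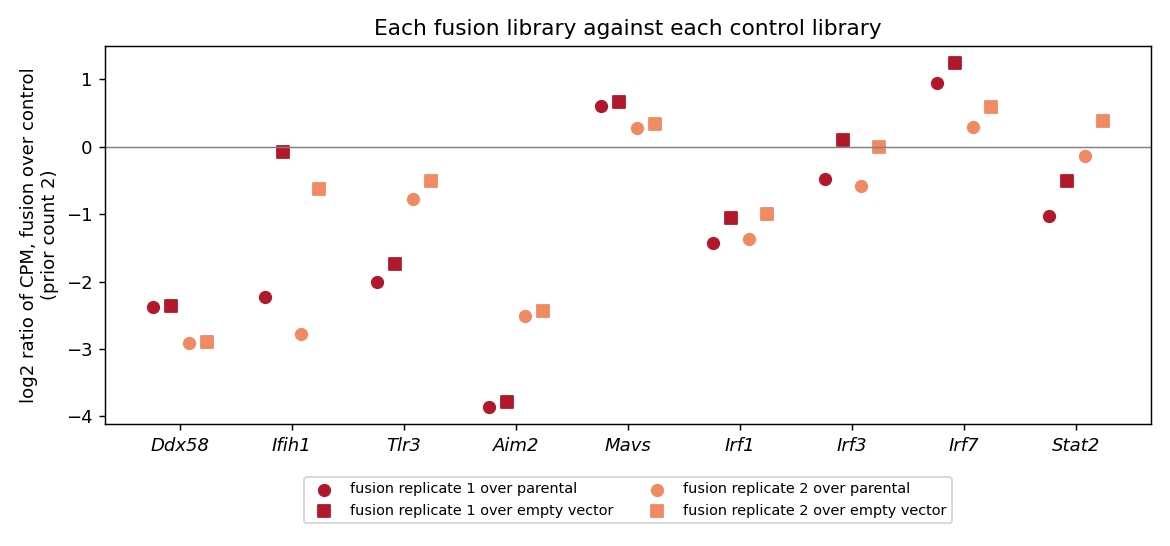
Log2 ratio of CPM (prior count 2) of each fusion library over each control library, per gene; colour marks the fusion replicate, circles the parental and squares the empty-vector control. All 4 points lie between -2.92 and -2.37 for Ddx58 and between -1.431 and -0.997 for Irf1, whereas those of Stat2 run from -1.03 to 0.38 on both sides of 0.

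Per transcript length, on the deposited TPM scale (transcripts per 1000000), the order of the members differed between the groups. In the fusion libraries mean levels ran from Irf3 at 26.6 ± 0.347 TPM through Mavs at 21.8 ± 2.62 TPM, Stat2 at 16.6 ± 6.58 TPM and Irf1 at 16.6 ± 0.311 TPM to Ddx58 at 4.40 ± 1.05 TPM and Aim2 at 3.29 ± 1.96 TPM (SD, n = 2 each). The libraries of Mavs and Stat2, of Stat2 and Irf1, and of Ddx58 and Aim2 overlapped. In the wild-type libraries they ran from Irf1 at 35.0 ± 6.56 TPM through Irf3 at 33.0 ± 10.3 TPM, Ddx58 at 23.9 ± 0.997 TPM, Aim2 at 22.5 ± 3.13 TPM and Stat2 at 18.7 ± 3.06 TPM to Mavs at 15.02 ± 0.537 TPM (SD, n = 2 each). There each gene's libraries overlapped those of the next, except between Irf3 and Ddx58 and between Stat2 and Mavs. Tlr3, Irf7 and Ifih1 lay at 0.02 to 0.39 TPM in the fusion libraries and at 0.19 to 0.64 TPM in the controls, below the other 6 in every library. Ddx58 had rank 5 in fusion cells and rank 3 in wild-type cells, and Mavs rank 2 in fusion cells and rank 6 in wild-type cells.

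Of the 7 genes that passed the filter, Ddx58 and Aim2 stood furthest apart between the groups, and the controls were close to each other for both. The log2 ratio of CPM in the empty-vector over the parental library was -0.01 for Ddx58, -0.08 for Aim2 and -0.06 for Mavs. It was -0.38 for Irf1, -0.52 for Stat2 and -0.58 for Irf3, each higher in the parental library. Among 9804 genes at 10 CPM or more in the higher of these libraries, 4.06% were at least 2-fold apart, and none of the 6 well-counted genes was. Fusion replicate 2 over replicate 1 gave log2 ratios of -0.54 for Ddx58, 0.06 for Irf1, -0.33 for Mavs, -0.10 for Irf3 and 0.88 for Stat2. In that pair 4.84% of 10121 genes were at least 2-fold apart, and none of these 5 was. Aim2, at 1.34 on the same scale, was below the 10 CPM floor.

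The deposited tables also give each gene's mean transcript length, weighted by the estimated share of its isoforms, which is a separate readout of the same reads. For Ddx58 it was 3194 and 3189 bases in fusion replicates 1 and 2, against 3375 bases in the parental and 3397 bases in the empty-vector library. The fusion mean was 5.74% shorter. The annotated transcripts of Ddx58 run from 386 to 3874 bases, and 2 of the 10 are protein-coding. Among 9209 genes with more than 1 transcript and at least 100 counts in every library, both fusion libraries were at least 5% shorter than both controls for 2.95% and at least 5% longer for 3.55%. Of the 5 members in that set, Ddx58 was the 1 past that limit. Mavs had 2982 and 2911 bases in the fusion libraries and 2880 and 2832 bases in the parental and empty-vector libraries, without overlap but under 5% apart. Irf3 had 1169 and 1147 bases in fusion replicates 1 and 2, against 995 in the parental and 1115 in the empty-vector library. Its groups did not overlap, and its fusion mean was 9.78% longer, a larger share than for Ddx58. Irf3 did not pass the limit because the empty-vector library came close to the fusion libraries. The lengths of Irf1 and Stat2 overlapped between the groups.

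**Figure D4:**
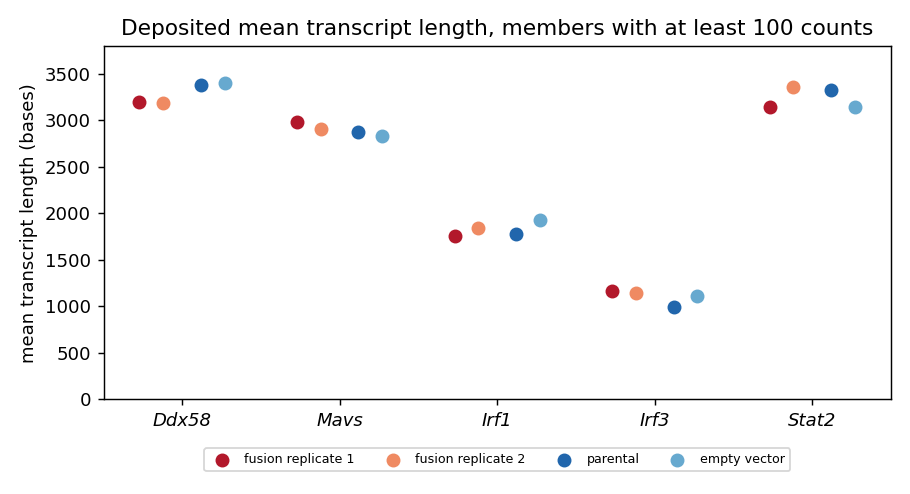
Deposited mean transcript length in bases for the 5 members with at least 100 counts in every library, with the fusion libraries at the left of each gene. Ddx58 is shorter in both fusion libraries (3194 and 3189 bases) than in both controls (3375 and 3397 bases), while the groups of Irf1 and Stat2 overlap.

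The nearest tested protein-coding genes on either side of Ddx58 were Aco1 and Topors, with log2 fold changes of -0.55 (SE 0.22, adjusted p = 0.223) and -0.25 (SE 0.19, adjusted p = 0.544) by edgeR. Those of Irf1 were Rad50 at -0.36 (SE 0.22) and Slc22a5 at -0.14 (SE 0.34), and neither passed (adjusted p = 0.428 and 0.873). Dpp4, a surface peptidase gene 183567 bases from Ifih1 and the nearest tested on that side, rose to 54.2 and 51.2 CPM in the fusion libraries, against 3.96 and 12.2 CPM in the controls (log2 2.71, SE 0.48, adjusted p = 0.0366, edgeR).

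The genes whose levels across the 4 libraries were nearest to those of Ddx58, by Euclidean distance on centred log2(CPM + 1) among 10527 genes, were Nnt (distance 0.399), Rian (0.440) and Napsa (0.466). Nnt had 12.8 and 8.85 CPM in fusion replicates 1 and 2, against 47.1 CPM in the parental and 59.9 CPM in the empty-vector library. Nearest to Irf1 were Slc17a9 (0.0969), Lin28a (0.140) and Rai14 (0.158), and Slc17a9 had 19.1 and 19.4 CPM in the fusion and 49.3 and 41.6 CPM in the controls. Nearest to Aim2 were Kcnj3 (0.271), Myb (0.291) and Rragb (0.373). With 4 libraries such likeness is a description of level alone.

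The rest of the pathway was taken from 7 lists that leave out the 9 genes. Of 156 genes, 117 were tested, and by edgeR 1 rose and 1 fell. Their median log2 fold change was -0.03, against -0.003 over all 16511 genes tested. Over all of those, edgeR called 2.83% higher and 0.581% lower, and DESeq2 called 919 genes higher and 436 lower. The share of all tested genes at an unadjusted p under 0.05 was not taken, so nothing is read from the counts given at that threshold. Interferons themselves were not detected at this depth. Of 12 interferon genes, among them Ifnb1, 10 had 0 counts in every library, and Ifnk and Ifnl2 had 1 count each, in fusion replicate 1 and replicate 2. A count of 0 allows up to 0.137 to 0.159 CPM in these libraries, taking 3 counts per library as the limit.

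Other RNA-sensing genes showed no call. Of 22 tested, 0 passed by edgeR in either direction (1 higher and 1 lower at an unadjusted p under 0.05, and 0 by DESeq2), with a median log2 fold change of -0.08. Ddx3x, an RNA helicase, had 694.0 and 612.7 CPM in the fusion libraries, against 749.1 CPM in the parental and 888.3 CPM in the empty-vector library. Dhx9, another RNA helicase, had 544.2 and 457.2 CPM in the fusion libraries, against 554.9 and 517.7 CPM in the controls. Dhx58, which encodes LGP2, a relative of RIG-I, named after its values were seen, had 3.76 and 3.37 CPM in the fusion libraries, against 2.03 CPM in the parental and 2.49 CPM in the empty-vector library (log2 0.66, SE 0.41, adjusted p = 0.446, edgeR).

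Of 14 tested DNA-sensing genes 0 passed by edgeR (2 higher and 2 lower at an unadjusted p under 0.05, and 2 higher by DESeq2), and the median was -0.04. Rnaseh2a, a subunit of ribonuclease H2, had 73.9 and 72.2 CPM in the fusion libraries, against 107.3 CPM in the parental and 74.2 CPM in the empty-vector library. Xrcc6, the Ku70 subunit, had 116.6 and 79.1 CPM in the fusion and 83.2 and 86.7 CPM in the controls. Cgas and Sting1, the cytosolic DNA sensor and its adaptor, were named after their values were seen. Cgas had 3.51 and 2.69 CPM in the fusion libraries, against 0.781 and 0.637 CPM in the controls (log2 2.12, SE 0.48, adjusted p = 0.0627, edgeR), and Sting1 had 8.77 and 1.28 CPM against 0.729 and 0.690 CPM (log2 2.81, SE 0.89, adjusted p = 0.141). Casp1 and Pycard, the protease and the adaptor of the AIM2 inflammasome, were also named after their values were seen. Casp1 had 0 counts in every library, and Pycard stood at 13.8 and 10.35 CPM in the fusion libraries, against 17.0 CPM in the parental and 26.4 CPM in the empty-vector library (adjusted p = 0.204, edgeR).

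Adaptors and kinases, and the remaining IRF and STAT factors, held no call by edgeR among 25 and 14 tested genes. At an unadjusted p under 0.05 there were 3 higher and 1 lower adaptors and kinases, and 2 higher and 0 lower factors; DESeq2 called 1 higher and 1 lower of the first and 0 of the second. Their medians were 0.21 and 0.09. Chuk (IKK alpha) had 59.65 and 67.7 CPM in the fusion and 64.8 and 65.9 CPM in the controls, and Irak1, a kinase of Toll-like receptor signalling, 47.1 and 42.7 CPM against 41.3 and 44.9 CPM. Irf2bpl, which encodes a relative of an IRF2-binding protein, had 208.7 and 153.5 CPM in the fusion libraries, against 81.6 CPM in the parental and 124.6 CPM in the empty-vector library (log2 0.81, SE 0.26, adjusted p = 0.144), and Stat6, the interleukin-4 STAT, 57.0 and 54.2 CPM against 61.5 and 60.5 CPM. Irf9, a partner of STAT2 named after its values were seen, had 14.4 and 12.4 CPM in the fusion libraries, against 15.99 CPM in the parental and 16.8 CPM in the empty-vector library (log2 -0.29, SE 0.26, adjusted p = 0.612, edgeR).

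Of 15 tested interferon receptor and signalling genes, Il10rb rose and 0 fell by edgeR, with a median of 0.34 (4 higher and 0 lower at an unadjusted p under 0.05; DESeq2 called 3 higher and 0 lower). With 1 library left out the median ran from 0.31, without fusion replicate 2, to 0.52, without the parental library. Both fusion libraries lay above both controls for 7 of the 15 and below both for 0, against 27.1% and 24.2% of all tested genes. Il10rb, the receptor chain shared by interferon lambda and interleukin-10, had 17.6 and 6.06 CPM in fusion replicates 1 and 2, against 1.20 CPM in the parental and 1.06 CPM in the empty-vector library (log2 3.38, SE 0.59, adjusted p = 0.0345, edgeR). Its adjusted p was 0.120 without fusion replicate 1, 0.0945 without the parental and 0.108 without the empty-vector library. Ptpn2 and Ptpn6, phosphatases that act on JAK-STAT signalling, had 43.6 and 50.2 CPM and 57.7 and 51.25 CPM in the fusion libraries, against 59.5 and 49.75 CPM and 43.5 and 49.96 CPM in the controls. Ifngr1, Jak1 and Nfkb1 of these lists, named after their values were seen, lay just outside the threshold, with log2 fold changes of 1.92, 0.86 and 0.91 and adjusted p = 0.0537, 0.0548 and 0.0538 by edgeR.

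Of 27 tested interferon-stimulated genes, Ifitm3 fell and 0 rose by edgeR, against 0.581% lower and 2.83% higher of all tested genes. At an unadjusted p under 0.05 there were 0 higher and 11 lower. Nothing is read from that count, because the share of all tested genes at that threshold was not taken. DESeq2 called 0 higher and 6 lower, against 919 higher and 436 lower of all 16511 tested genes. Ifitm3, a membrane protein that blocks virus entry, had 52.3 and 42.3 CPM in the fusion libraries, against 118.4 CPM in the parental and 116.0 CPM in the empty-vector library (log2 -1.31, SE 0.19, adjusted p = 0.0223, edgeR). Its adjusted p was 0.0541 without fusion replicate 1 and 0.0536 without fusion replicate 2. The Ifitm genes are alike in sequence, so how reads were split among them is uncertain. Ifitm1 had 292.0 and 218.4 CPM in the fusion libraries, against 390.9 and 434.6 CPM in the controls (adjusted p = 0.115), and Ifitm2 272.5 and 248.2 CPM against 288.9 and 249.7 CPM. The fold change was below 0 for 22 of the 27, and the median of -0.82 compares with -0.003 over all genes tested. Both fusion libraries lay below both controls for 15 of the 27 and above both for 0, against 24.2% and 27.1% of all tested genes. The median was -0.45 by limma on log2(TPM + 1), a scale that understates the change of low genes. Without the parental library it was -0.53, without fusion replicate 1 -0.55 and without fusion replicate 2 -1.03. Part of the list stood highest in the parental library: Gbp2 and Irgm1, interferon-induced GTPases named after their values were seen, had 0.802 and 1.73 CPM and 0.802 and 1.28 CPM in the fusion libraries, against 19.6 CPM and 7.97 CPM in the parental and 3.18 CPM and 3.02 CPM in the empty-vector library (adjusted p = 0.101 and 0.0814, edgeR). Isg15, among the genes most strongly induced by interferon and named after its values were seen, had at most 0.990 CPM, in the parental library, and was not tested.

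**Figure D5:**
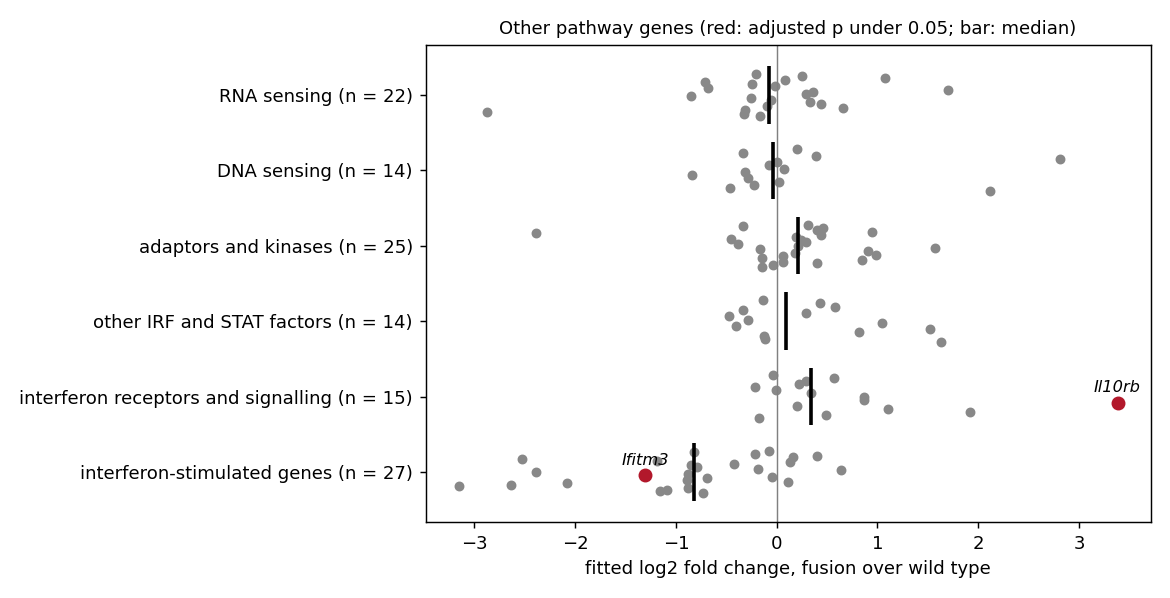
Fitted log2 fold change, fusion over wild type, of each tested gene in 6 of the 7 lists; red points passed the adjusted p of 0.05 and black bars are list medians. Il10rb at 3.38 and Ifitm3 at -1.31 are the 2 red points, and the interferon-stimulated genes have a median of -0.82; no interferon gene could be tested.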

How the data were processed

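Libraries came from a stranded mRNA kit, per the labels' protocols. Gene tables deposited by the authors hold expected counts, TPM, FPKM and mean transcript length, per the file headers. The submitters' processing notes name STAR 2.7.10a, RSEM 1.3.3 and DESeq2 1.36.0, with build GRCm38/mm10; no source used here states the annotation release, filters or strand setting. Deposited expected counts share out multi-mapped reads; deposited FPKM was not used. The members and lists were chosen with earlier results of these data known. The readouts of mean transcript length (at least 100 counts, 5% limit), neighbouring genes and chromosome medians were added after the files were seen, and some genes of the lists and among the neighbours are not reported here.

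Symbols and coordinates came from GENCODE vM21 (GRCm38), and promoter windows from RefSeq (GRCm38.p6); all 9 members matched. Sting1, Mnda and Pyhin1 were matched through RefSeq synonyms. Rounded expected counts were filtered by filterByExpr (minimum count 10), scaled by TMM and compared by the robust quasi-likelihood test of edgeR 4.0.16 (R 4.3.3), 2 fusion libraries against the parental and empty-vector libraries as 1 group. Benjamini-Hochberg adjustment covered 16511 genes, at 0.05. The SE of a log2 fold change is its size divided by the square root of the F statistic. The fit was tested on simulated data. Library pairs used a prior count of 2. Named list genes were up to 4 past the threshold and the 2 of highest mean TPM; others are marked in the text. Nearest patterns were sought among genes averaging 5 CPM or more, leaving out symbols of predicted models. Alternatives were DESeq2 size factors, no filter, a DESeq2 1.42.0 Wald test, limma 3.58.1 on log2(TPM + 1), each library left out, TPM pseudocounts of 1 and 0.1, and a prior count of 0.5. Tables used pandas 2.3.3 and scipy 1.17.1, and plots matplotlib 3.10.9, in python 3.11.15.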

Additional observations from a re-analysis of the deposited data

How the results depend on the processing

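With 2 libraries a group, the calls depend on the tool and on each library. Of all genes, 468 were called higher and 96 lower; the counts were 1315 and 631 with no filter and 919 and 436 by DESeq2's Wald test, and ranged from 152 to 367 and from 11 to 185 with 1 library left out, both lowest without fusion replicate 1. Of the pathway list genes, 7 rose and 9 fell with no filter, 6 and 7 by DESeq2, and 2 rose by limma on TPM; with 1 library left out 0 to 2 rose and 0 to 4 fell. With 1 library left out, the fitted log2 fold change ran from -2.93 to -2.38 for Ddx58, from -3.91 to -2.51 for Aim2, from -1.43 to -1.04 for Irf1, from -2.21 to -0.70 for Tlr3 and from 0.30 to 0.64 for Mavs, and it ran from -0.55 to 0.036 for Irf3 and from -0.79 to 0.09 for Stat2. The log2 ratio of counts ran from -3.54 to -0.57 for Ifih1 and from 0.80 to 1.61 for Irf7. As a difference of mean log2(TPM + 1), Ddx58 was at -2.22, Irf1 at -1.02, Tlr3 at -0.18 and Ifih1 at -0.23; with a pseudocount of 0.1 Tlr3 was at -0.54 and Irf7 at -0.46, opposite in sign to its count ratio. A pseudocount shrinks low genes by construction; the cause of the other changes was not tested. DESeq2 size factors moved none of the 7 members that passed the filter beyond the replicate spread, and a prior count of 0.5 moved no library pair beyond counting error. Depth limits Ifih1, Irf7, Tlr3 and the interferons. No paired analysis was possible because the control libraries carry no replicate numbers.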
